A study of Mus musculus with 18 samples.

Results

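The comparison was between 3-week-old homozygous and heterozygous cardiac knockouts of Cops8, the mouse gene of CSN8, a subunit of the COP9 signalosome. It used 6 of the 18 hearts in the series, chosen by their labels: 3 homozygous (Hom-CKO) and 3 heterozygous (Het-CKO) hearts. All mice were FVB/N. Hom-CKO mice had the genotype Cops8 flox/flox with a Myh6-Cre transgene, and Het-CKO mice were Cops8 flox/+ littermates with the same transgene, so both groups carried the Cre. Littermates of the genotype Cops8 flox/flox without Cre (CTL, 3 hearts at 3 weeks) are set beside them here as levels only. The ventricles of 1 animal gave the labelled cRNA of each array. The Myh6 promoter is active in cardiomyocytes, and the other cells of the ventricle keep an intact Cops8. At this age cardiomyocytes of Hom-CKO hearts have begun to die by necrosis, and the question was which genes and functions set these hearts apart from Het-CKO hearts.

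The COP9 signalosome removes the small protein NEDD8 from cullins, the scaffolds of the cullin-RING ubiquitin ligases, and so lets these ligases exchange the receptors that pick their substrates. Adult cardiomyocytes do not divide, draw most of their ATP from fatty acids, and depend on ubiquitin ligases, autophagy and chaperones to renew their contractile proteins. A diseased ventricle commonly re-expresses genes of the fetal heart, turns away from fatty acid oxidation and gains extracellular matrix.

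Levels are raw intensities after quantile normalization over the 18 arrays, divided by the median probe, which puts the median probe at 1. They were raised to a floor of 0.259, and levels of different probes are not comparable. Fold changes are on the log2 scale as Hom-CKO over Het-CKO, with standard errors and Benjamini-Hochberg adjusted p from limma, and a gene stands at its brightest probe unless another is named. The array medians of raw intensity were 36.0 to 40.4 in Hom-CKO against 32.3 to 36.8 in Het-CKO hearts. The arrays of a group correlated with r = 0.992 to 0.993 in Hom-CKO against 0.985 to 0.993 in Het-CKO hearts, where replicate 2 stood further from the rest. Cops8 itself read 35.2, 35.4 and 35.8 in Hom-CKO hearts against 35.4, 30.2 and 26.9 in Het-CKO (log2 fold change 0.21 ± 0.11 SE, adjusted p = 0.239). Whether its probes lie in the floxed exons, numbered 4 to 6, is not known here, so they check no genotype. The hearts also differed in sex-linked transcripts. Xist, the non-coding RNA of the inactive X chromosome, read 13.2, 0.259 and 14.6 in Hom-CKO hearts against 0.259, 0.259 and 0.259 in Het-CKO. The Y-linked Ddx3y was at the floor in Hom-CKO replicates 1 and 3, read 7.96 in Hom-CKO replicate 2 and 10.4, 9.39 and 10.2 in Het-CKO hearts. Only 1 Hom-CKO heart therefore matched the Het-CKO hearts in sex-linked signal, and counts with the Xist level as a covariate, or with Hom-CKO replicate 2 alone against the 3 Het-CKO hearts, stand beside each list's count of over 3 genes that they moved by over 1.5 times. In that last fit the single heart is assumed to vary as the other groups do. In bulk tissue, fewer cells of a type and less RNA per cell cannot be told apart.

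Of 26594 probes tested, 3668 (13.8%) passed an adjusted p under 0.05, 1929 higher and 1739 lower in Hom-CKO hearts. By gene, 1475 of 16617 named genes were higher (8.88%) and 1264 were lower (7.61%), and the median log2 fold change over all of them was near 0 (-0.004). These shares are the background for every gene group below. The lists were chosen with earlier results of these data known, so a list's excess over them is a description and not independent support. Most genes named below were picked because they passed or changed much. Where their hearts do not overlap, that describes the values and adds no support. The share of all genes with such hearts is not given here. With the Xist level as a covariate 1142 genes were higher and 898 lower, and with Hom-CKO replicate 2 alone 1407 probes passed (815 higher and 592 lower). All 18 cardiomyocyte markers were above background on all arrays of both groups, and their summed level was 4762 to 4901 in Hom-CKO against 4644 to 5141 in Het-CKO hearts. None of the 18 passed limma or the methods' t-test, 3 were lower at an unadjusted p under 0.05, and 7 fell where each array was divided by its median in place of quantile normalization.

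Among the 25 largest rises were several genes that stood low in Het-CKO hearts. Tmem171, a transmembrane protein, read 10.9, 11.1 and 10.5 in Hom-CKO hearts against 1.15, 1.14 and 0.704 in Het-CKO (log2 fold change 3.48 ± 0.18 SE, adjusted p = 1.32e-09). The synapse differentiation gene Syndig1 read 2.76, 4.35 and 3.22 in Hom-CKO hearts against 0.394, 0.353 and 0.259 in Het-CKO (log2 fold change 3.36 ± 0.18 SE, adjusted p = 2.56e-09). Every Hom-CKO heart lay above every Het-CKO heart for both, as the choice of these 25 genes required. Rasgrf2, an exchange factor for Ras and Rac, was above background in no Het-CKO heart and read 2.20, 2.82 and 2.55 in Hom-CKO hearts, at least 9.08-fold higher (adjusted p = 8.07e-11). Such a bound sets the mean of the higher group against the dimmest signal of any probe that counted as above background on the other group's arrays. Where the probe's own level was higher, that level was used. The bound lies close to the ratio to the floor (9.20 for Rasgrf2). Brighter signals can still count as background (up to 0.362 for Rasgrf2 in CTL hearts). It therefore holds for measured levels and is not a lower limit for the transcript. Mylk2, the myosin light chain kinase of skeletal muscle, was likewise at least 7.67-fold higher (1.84, 2.25 and 1.97 in Hom-CKO hearts, adjusted p = 3.61e-11). Spp1, osteopontin, a secreted matrix protein and cytokine, read 2.70, 4.91 and 2.22 in Hom-CKO hearts against 0.259, 0.553 and 0.338 in Het-CKO (log2 fold change 3.08 ± 0.32 SE, adjusted p = 6.58e-06). Ankrd1 and Ankrd2, a pair of stretch-responsive ankyrin repeat proteins of the sarcomere, rose together, Ankrd1 to 75.0, 71.9 and 76.6 from 9.54, 12.3 and 7.91 and Ankrd2 to 2.05, 2.48 and 1.53 from 0.311, 0.259 and 0.259 (log2 fold changes 2.93 and 2.85). The organic cation and ergothioneine transporter Slc22a4 (2.69) and the chromatin remodelling subunit Ino80d (2.65) were also among the 25 largest.

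Probes of a gene did not always move together. The mitochondrial pyrophosphatase Ppa2 had a dim probe among the largest rises (on average 2.04 against 0.259, log2 fold change 2.97), while its brightest probe fell from 33.1 to 20.2 (-0.71) and the remaining one did not pass (0.10, adjusted p = 0.637). Of 5 probes of Syn2, synapsin II, a pair rose by 2.92 and 2.80, the brightest rose by 0.29, and the others did not pass (0.04 and 0.52). Further genes named below passed only at the brighter of their probes, among them Aen, Bcl2, Bok, Cars, Col1a2, Dbt, Diablo, Fstl3 and Gclc. The same held for Klhl31, Lamp1, Pdk1, Pkp4, Postn, Psme1, Rgs2, Slc1a4, Tgfb3 and Tigar.

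The largest falls included genes of energy storage, ion transport and amine breakdown. The calmodulin-binding peptide Pcp4 read 0.606, 0.593 and 0.531 in Hom-CKO hearts against 3.00, 5.92 and 2.65 in Het-CKO (log2 fold change -2.65 ± 0.33 SE, adjusted p = 4.01e-05). The muscle fructose-bisphosphatase Fbp2 read 0.825, 0.603 and 0.723 in Hom-CKO hearts against 5.60, 3.84 and 3.41 in Het-CKO (log2 fold change -2.56 ± 0.17 SE, adjusted p = 2.15e-08). In both the lowest Het-CKO heart lay several fold above the highest Hom-CKO heart, and the choice of the largest falls required the hearts to lie apart. Gpr158, a G protein-coupled receptor, was above background in no Hom-CKO heart and read 1.67, 1.04 and 1.495 in Het-CKO hearts, at least 5.21-fold lower (adjusted p = 1.97e-07). Jade1, a scaffold of a histone acetyltransferase complex, read 4.41, 4.36 and 3.96 in Hom-CKO hearts against 21.2, 17.5 and 17.9 in Het-CKO at the brighter of its probes (log2 fold change -2.15 ± 0.12 SE, adjusted p = 2.89e-09), and the other did not pass. The aromatic amino acid transporter Slc16a10 (-2.21), the lens crystallin gene Cryba4 (-1.94), the secreted neuronal protein Lgi1 (-1.92) and the retinol esterifying enzyme Lrat (-1.92) were among the 25 largest falls as well.

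**Figure D1:**
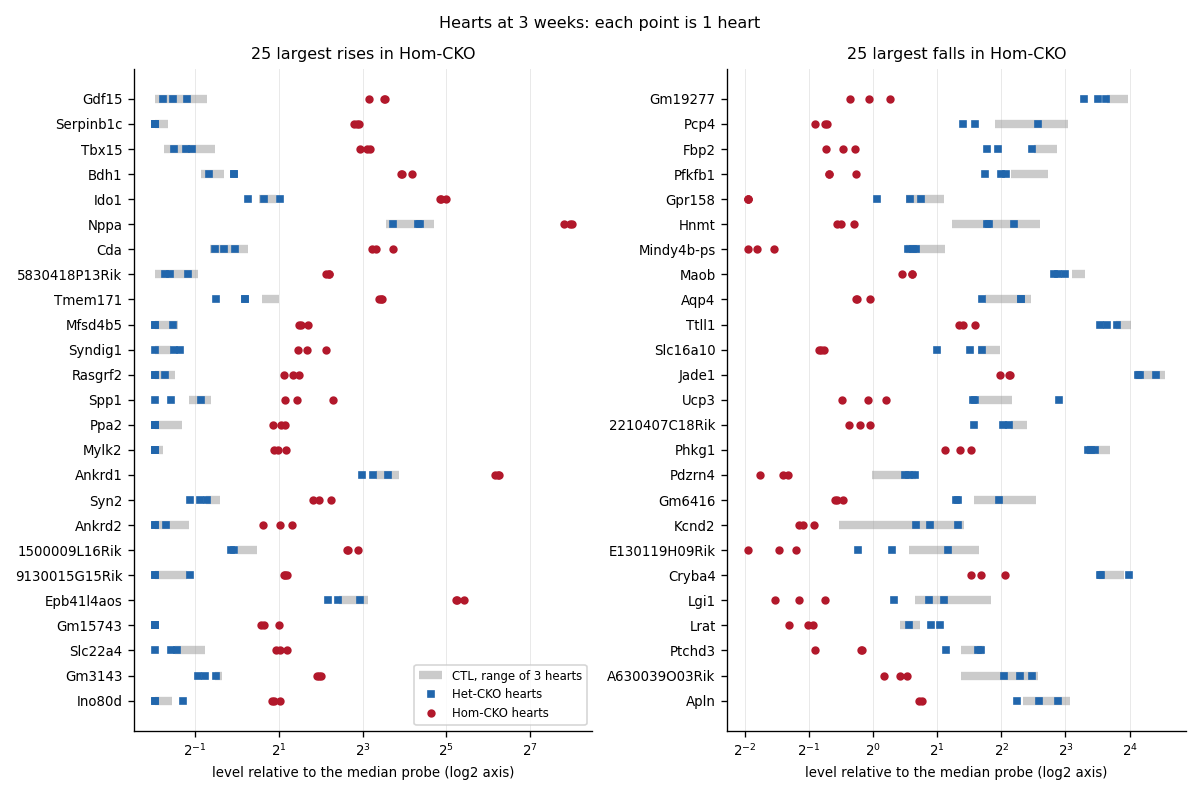
Level of each heart at 3 weeks for the 25 genes with the largest rises and the 25 with the largest falls, each at 1 probe, relative to the median probe on a log2 axis. Red points are the 3 Hom-CKO hearts, blue squares the 3 Het-CKO hearts and grey bars the range of the 3 CTL hearts. Only genes whose hearts did not overlap between the groups were eligible, so the points lie apart in every row by choice. The row of Gm19277 among the falls reads 0.779 to 1.20 against 9.80 to 12.4.

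The integrated stress response raises translation of the factor ATF4 when protein synthesis is checked, and ATF4 then drives genes of amino acid supply and tRNA charging. Of 46 genes of this list tested, 16 rose, 2 fell and 28 did not pass, with a median log2 fold change of 0.231. Atf4 read 105, 128 and 111 in Hom-CKO hearts against 61.8, 68.7 and 60.9 in Het-CKO, so all Hom-CKO hearts lay above all Het-CKO hearts (log2 fold change 0.84 ± 0.09 SE, adjusted p = 8.81e-06). CTL hearts read 66.4 to 74.0. The stress-induced cytokine Gdf15 read 11.3, 11.5 and 8.94 in Hom-CKO hearts against 0.438, 0.351 and 0.297 in Het-CKO (log2 fold change 4.88 ± 0.35 SE, adjusted p = 5.98e-08). The glutathione-degrading enzyme Chac1 read 3.86, 3.83 and 3.33 in Hom-CKO hearts against 2.32, 1.28 and 2.00 in Het-CKO (log2 fold change 1.01 ± 0.31 SE, adjusted p = 0.0376). Ppp1r15a, which directs the dephosphorylation of eIF2α, read 7.91, 7.84 and 6.48 in Hom-CKO hearts against 3.33, 4.02 and 4.53 in Het-CKO (log2 fold change 0.91 ± 0.14 SE, adjusted p = 0.000211). Ddit3, which encodes the factor CHOP, read 14.8, 17.7 and 20.8 in Hom-CKO hearts against 10.9, 13.2 and 11.9 in Het-CKO (log2 fold change 0.56 ± 0.13 SE, adjusted p = 0.00721). The hearts of the genotypes did not overlap for any of these genes, which the choice of the largest rises required of Gdf15. The others were picked as called genes, by size or after their values were seen, so this describes values and is no further support. Among aminoacyl-tRNA synthetases, which charge tRNAs, Lars (1.32, at 1 of its 2 probes), Cars (0.54), Sars (0.41), Nars (0.40) and Gars (0.34) rose and Tars fell (-0.47). The targets Trib3 (-0.16, adjusted p = 0.523) and asparagine synthetase Asns (-0.34, adjusted p = 0.277) did not pass, and the secreted glycoprotein Stc2 fell (-1.02). With the Xist level as a covariate 12 rose, with Hom-CKO replicate 2 alone 9, and with either Hom-CKO replicate 2 or Het-CKO replicate 2 left out 10.

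ATF4 binds with a partner to a composite element, searched here as TGATGNAA on both strands in RefSeq promoters (GRCm38.p6, 250 bases before to 50 after each start). The letters were found in 4.51% of 27025 promoters, in 11 of the 40 list members with a promoter (27.5%) and in 4 of the 12 members that rose and have one (33.3%). Of all 1132 genes that rose and have a promoter, 3.53% held them. The sites of those 4 risers are shown because they let the list be read in sequence, with the match in capitals and 10 bases on each side, written 5′ to 3′ along the gene.
Chac1 (chr2:119351039-119351066, 193 bases before the start): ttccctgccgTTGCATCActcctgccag
Gars (chr6:55037961-55037988, 30 bases before the start): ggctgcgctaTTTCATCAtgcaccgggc
Slc1a4 (chr11:20332700-20332727, 4 bases before the start): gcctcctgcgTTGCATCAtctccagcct
Pycr1 (chr11:120643834-120643861, 103 bases before the start): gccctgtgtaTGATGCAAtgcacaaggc
The Pycr1 match lies on the strand of the gene and the others on the opposite strand, and each match is a description of letters, not of binding. Slc1a4, a neutral amino acid transporter, read 4.72, 5.55 and 6.21 in Hom-CKO hearts against 3.82, 2.94 and 3.98 in Het-CKO (log2 fold change 0.62 ± 0.17 SE, adjusted p = 0.0219). Pycr1, an enzyme of proline synthesis, read 4.75, 5.74 and 4.46 in Hom-CKO hearts against 2.93, 3.50 and 3.66 in Het-CKO (log2 fold change 0.56 ± 0.14 SE, adjusted p = 0.0121).

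The tumour suppressor p53 induces genes of cell cycle arrest, DNA repair and apoptosis. Of 32 of its targets tested, 12 rose and 1 fell, with a median of 0.172. Cdkn1a, the cyclin-dependent kinase inhibitor p21, read 45.8, 39.3 and 38.5 in Hom-CKO hearts against 7.15, 6.02 and 6.67 in Het-CKO (log2 fold change 2.64 ± 0.17 SE, adjusted p = 1.29e-08), while CTL hearts read 3.38 to 6.13. Phlda3, an inhibitor of Akt signalling, read 19.5, 20.6 and 19.4 in Hom-CKO hearts against 4.23, 5.63 and 4.26 in Het-CKO (log2 fold change 2.09 ± 0.16 SE, adjusted p = 1.09e-07). Neither gene had overlapping hearts, and both rose by over 4-fold. The pro-apoptotic Bax read 20.8, 21.9 and 21.3 in Hom-CKO hearts against 10.1, 13.5 and 10.5 in Het-CKO (log2 fold change 0.92 ± 0.12 SE, adjusted p = 4.89e-05). Bbc3, which encodes PUMA, read 2.61, 3.09 and 2.73 in Hom-CKO hearts against 1.56, 1.64 and 1.495 in Het-CKO (log2 fold change 0.84 ± 0.11 SE, adjusted p = 5.96e-05). The RNA-binding protein Zmat3 (0.98), the nuclease Aen (1.07) and the metabolic regulator Tigar (0.80) rose as well. Trp53 itself (-0.07, adjusted p = 0.801) and the p53 ubiquitin ligase Mdm2 (0.61, adjusted p = 0.119) did not pass, and the DNA damage sensor Ddb2 fell (-0.48). With Hom-CKO replicate 2 alone 8 rose.

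The wider cell death list held 7 rises and 4 falls among 46 genes (2 falls without Het-CKO replicate 3). With Hom-CKO replicate 2 alone 4 rose and none fell by limma (3 were lower at an unadjusted p under 0.05). Tnfrsf12a, the receptor of the cytokine TWEAK, read 70.6, 77.7 and 75.9 in Hom-CKO hearts against 20.9, 16.5 and 21.4 in Het-CKO (log2 fold change 1.94 ± 0.26 SE, adjusted p = 6.60e-05). The BAX relative Bok (1.19) rose, and so did the anti-apoptotic Bcl2 (0.73) and Bcl2l1 (0.59), whereas the mitochondrial proteins Endog (-0.55), Diablo (-0.44) and Cycs (-0.35) fell. Of 47 cell cycle genes 10.6% passed, against 16.5% of all named genes, and 4 rose and 1 fell. Beside Cdkn1a, these were cyclin D2, Ccnd2, which read 31.6, 36.2 and 32.7 in Hom-CKO hearts against 17.4, 18.6 and 17.5 in Het-CKO (log2 fold change 0.91 ± 0.13 SE, adjusted p = 9.02e-05), Cdkn2b (0.73) and Ube2c (0.54), and the mitotic protein Cenpf fell (-0.71). Levels of the proliferation markers Mki67 (4.67, 5.83 and 1.59 in Hom-CKO hearts against 1.35, 5.47 and 2.84 in Het-CKO) and Cdk1 (3.37, 4.68 and 1.20 in Hom-CKO hearts against 1.31, 7.08 and 3.65 in Het-CKO) overlapped between the groups and did not pass. Of 28 histone genes 4 fell, among them linker histone H1f2 (3.61, 3.49 and 3.79 in Hom-CKO hearts against 9.64, 8.46 and 7.81 in Het-CKO, log2 fold change -1.25), and 1 rose. The share called among histone genes (17.9%) was near that of all named genes.

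NRF2 turns on enzymes against oxidants and electrophiles, many of which use or make NADPH. In that list 11 of 31 genes rose and 2 fell (median 0.125). The sulfiredoxin Srxn1 read 4.64, 4.70 and 4.87 in Hom-CKO hearts against 1.86, 1.83 and 1.76 in Het-CKO (log2 fold change 1.38 ± 0.12 SE, adjusted p = 9.43e-07). The epoxide hydrolase Ephx1 read 22.4, 22.2 and 19.8 in Hom-CKO hearts against 7.79, 8.70 and 6.56 in Het-CKO (log2 fold change 1.49 ± 0.15 SE, adjusted p = 2.45e-06). In both the hearts of each genotype lay close together and apart from the other genotype. The peptide transporter Abcb9 read 7.39, 6.16 and 6.86 in Hom-CKO hearts against 2.61, 1.16 and 2.07 in Het-CKO (log2 fold change 1.88 ± 0.22 SE, adjusted p = 1.62e-05). The quinone reductase Nqo1 rose at both its probes (0.79 and 0.74), thioredoxin reductase Txnrd1 by 0.87 and Gclc, the catalytic subunit of glutathione synthesis, by 0.64. Haem oxygenase Hmox1 (0.09, adjusted p = 0.837) and Nfe2l2, the gene of NRF2 (-0.15, adjusted p = 0.358), did not pass, and the carbonyl reductase Cbr1 (-1.01) and the cytosolic dehydrogenase Idh1 (-0.72) fell. Of 27 glutathione transferases and peroxidases 5 rose and 5 fell. The rises were 3 with Hom-CKO replicate 2, Hom-CKO replicate 3 or Het-CKO replicate 3 left out, and the falls were 2 or 3 without any 1 heart other than Het-CKO replicate 3, 2 with the Xist covariate and 2 with Hom-CKO replicate 2 alone. Gsta1 was at least 4.32-fold higher (adjusted p = 3.27e-07), above background in no Het-CKO heart, and the mitochondrial and peroxisomal transferase Gstk1 fell from 14.6, 14.8 and 15.3 to 3.82, 4.84 and 4.12 (log2 fold change -1.82 ± 0.12 SE, adjusted p = 1.30e-08), below the CTL hearts at 19.4 to 20.1.
The core letters of the antioxidant response element, TGACNNNGC, were searched in the same promoters. They stood in 14% of all promoters, in 10 of 26 list members (38.5%) and in 2 of the 9 that rose (22.2%), whose sites are shown for comparison with those above. Both motifs begin with TGA and differ in the next letter, so they cannot match at the same start. Both sites lie on the strand opposite to the gene.
Srxn1 (chr2:152105542-152105570, 28 bases after the start): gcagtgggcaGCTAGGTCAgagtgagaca
Txnrd1 (chr10:82859104-82859132, 92 bases before the start): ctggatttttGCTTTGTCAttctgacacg

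Chaperones refold damaged proteins, and 12 of 43 rose while 3 fell (median 0.147). The small heat shock protein Hspb1 read 195, 191 and 209.8 in Hom-CKO hearts against 108, 94.5 and 126 in Het-CKO (log2 fold change 0.87 ± 0.12 SE, adjusted p = 0.000133). The lens and muscle chaperone Cryab read 251, 224 and 195 in Hom-CKO hearts against 156, 122 and 161 in Het-CKO (log2 fold change 0.61 ± 0.17 SE, adjusted p = 0.0211). The inducible Hspa1a read 2.42, 2.79 and 2.23 in Hom-CKO hearts against 1.01 and 1.22 in Het-CKO with a Het-CKO spot left out (log2 fold change 1.16 ± 0.28 SE, adjusted p = 0.0144). The cytosolic Hsph1 (1.15, n = 2 in Hom-CKO hearts), Dnaja4 (0.70) and Hsp90aa1 (0.53) rose, and the muscle chaperones Hspb2 (-0.45) and Hspb3 (-0.85) fell. The main chaperone of the endoplasmic reticulum, Hspa5, did not pass (52.6, 59.5 and 55.2 in Hom-CKO hearts against 63.3, 45.3 and 81.5 in Het-CKO, adjusted p = 0.737). With either Hom-CKO replicate 2 or Het-CKO replicate 2 left out 6 rose, with the Xist covariate 7, and with Hom-CKO replicate 2 alone 5.

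**Figure D2:**
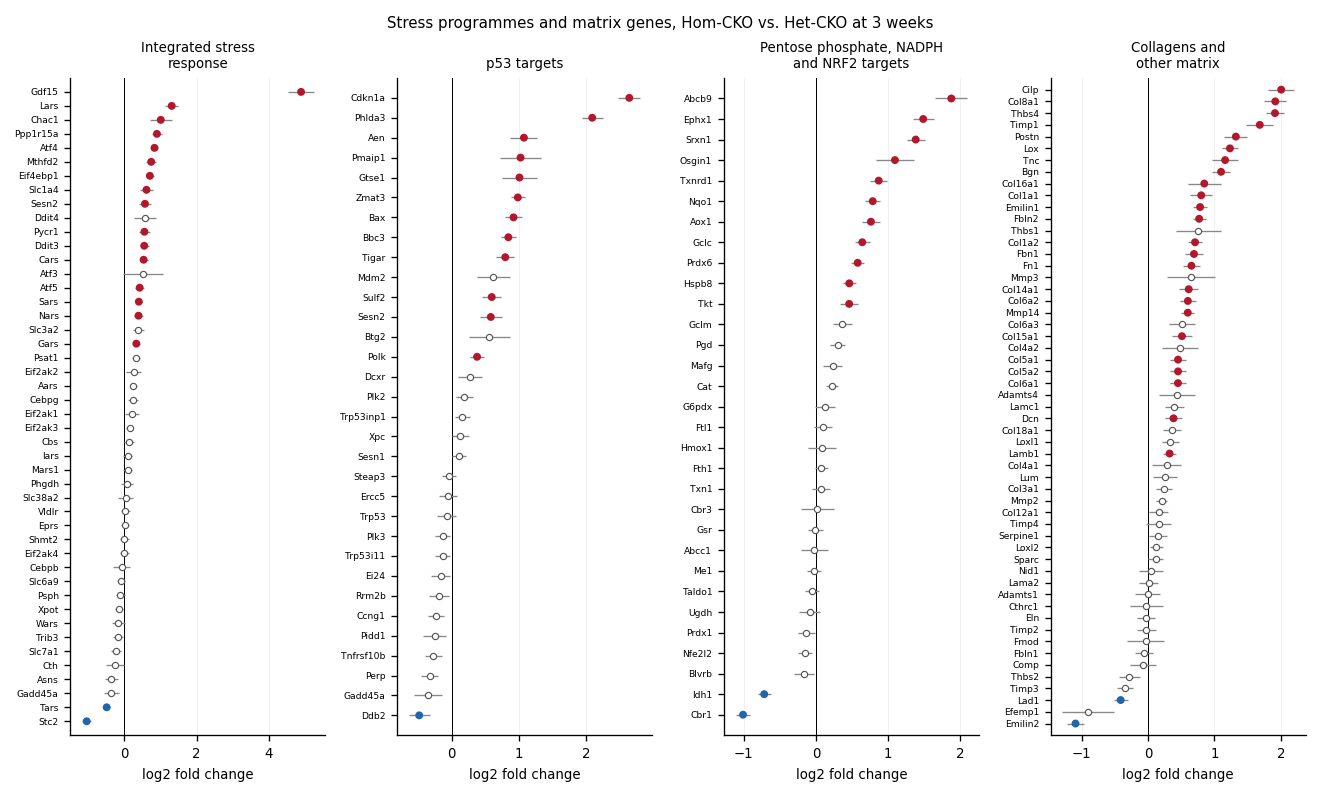
Log2 fold change, Hom-CKO over Het-CKO at 3 weeks, of each tested gene of 4 lists, with its standard error as a line (n = 3 hearts a group, fewer where a spot was left out). Red and blue points passed an adjusted p under 0.05 as higher and lower, and open points did not pass. Most filled points lie to the right of 0 in all 4 panels, from Gdf15 at 4.88 and Cdkn1a at 2.64 downward.

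Genes of fuel metabolism changed mostly downward. Of 43 genes of fatty acid uptake, storage and oxidation, 17 fell and 2 rose, and the median was -0.354. Plin5, which coats lipid droplets at mitochondria, read 11.02, 9.65 and 9.76 in Hom-CKO hearts against 33.1, 24.7 and 29.6 in Het-CKO (log2 fold change -1.51 ± 0.15 SE, adjusted p = 2.19e-06). The carnitine carrier Slc25a20 read 5.98, 5.74 and 6.397 in Hom-CKO hearts against 13.2, 11.6 and 12.4 in Het-CKO (log2 fold change -1.04 ± 0.14 SE, adjusted p = 4.96e-05). The β-oxidation dehydrogenase Hadh read 19.6, 20.1 and 21.9 in Hom-CKO hearts against 41.2, 41.0 and 41.2 in Het-CKO (log2 fold change -1.003 ± 0.09 SE, adjusted p = 1.05e-06). For all these genes the Hom-CKO hearts also lay below the CTL hearts, which read 21.5 to 34.2, 10.7 to 15.9 and 45.1 to 51.2. The uncoupling protein Ucp3 read 1.15, 0.941 and 0.716 in Hom-CKO hearts against 2.94, 7.46 and 3.01 in Het-CKO (log2 fold change -2.14 ± 0.31 SE, adjusted p = 0.000121), and its relative Ucp2 rose (0.56). The isomerase Eci1 (-0.78) and the electron transfer subunit Etfb (-0.80) fell. The lipase Mgll fell at the brighter of its probes (-0.90), and the other did not pass (0.13, adjusted p = 0.633). The fatty acid receptor Cd36 read 62.8, 62.1 and 69.2 in Hom-CKO hearts against 70.0, 63.9 and 68.7 in Het-CKO (adjusted p = 0.788). The carnitine palmitoyltransferase Cpt1b read 37.3 on average in Hom-CKO against 40.2 in Het-CKO hearts (adjusted p = 0.856). Neither Cd36 nor Cpt1b passed, whereas the carnitine carrier Slc25a20 fell, as given above. With Hom-CKO replicate 2 alone 12 fell, and with division of each array by its median 25. Of the receptors and coactivators that govern these genes, Pparg rose (5.09, 5.77 and 5.87 in Hom-CKO hearts against 2.53, 2.82 and 2.52 in Het-CKO, log2 fold change 1.09) with the orphan receptor Esrrb (0.91), Rxrg fell (-0.70), and Ppara (0.16, adjusted p = 0.71) and Ppargc1a (-0.11, adjusted p = 0.774) did not pass. Prkag3, a regulatory subunit of AMP-activated kinase, read 3.90, 4.47 and 4.29 in Hom-CKO hearts against 1.07, 0.732 and 1.25 in Het-CKO at the brighter of its probes (log2 fold change 2.08 ± 0.22 SE, adjusted p = 4.67e-06), while the other (0.04) and those of Prkag1 (0.02) and Prkag2 (0.28) did not pass.

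Of 21 enzymes that break down branched-chain amino acids 12 fell and none rose, and the median was -0.402. The biotin-dependent carboxylase of leucine breakdown fell at both subunits, Mccc1 (5.31, 5.197 and 5.91 in Hom-CKO hearts against 12.1, 9.74 and 10.9 in Het-CKO, log2 fold change -0.99) and Mccc2 (-0.78). Of the branched-chain dehydrogenase, Bckdhb (-0.59) and Dbt (-0.53) fell, Bckdha did not pass (0.20, adjusted p = 0.343), and the phosphatase that activates it, Ppm1k, fell from 13.9, 15.9 and 15.8 to 10.3, 7.86 and 7.42 (log2 fold change -0.84 ± 0.14 SE, adjusted p = 0.000416). Of 30 genes of the TCA cycle and pyruvate oxidation 8 fell and none rose (median -0.246), each by less than 2-fold. They included the malate carrier Slc25a11 (-0.65), the pyruvate dehydrogenase subunit Pdha1 (-0.67) and succinate dehydrogenase Sdhb (-0.42). No gene of either list was higher at an unadjusted p under 0.05 or by the methods' t-test. Of 76 oxidative phosphorylation genes 7 fell and 1 rose, a share of falls near that of all genes, with a median of -0.150 and 66 members below 0. Leaving out 1 heart at a time (Hom-CKO replicates 1 and 2, Het-CKO replicates 1 and 3), the falls were 6 or 7 for branched-chain breakdown, 3 or 4 for the TCA cycle (also 3 without Hom-CKO replicate 3) and 4 for oxidative phosphorylation. With the Xist covariate the branched-chain falls were 7. With Hom-CKO replicate 2 alone the falls of these lists were 6, 0 (8 at an unadjusted p under 0.05) and 1, and with division by the array median 11, 13 and 20.

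Of 42 genes of glycolysis and glycogen 10 fell and 3 rose (5 rose without Het-CKO replicate 1). With Hom-CKO replicate 2 alone 6 fell and none rose by limma (3 were higher at an unadjusted p under 0.05). Phosphorylase kinase subunit Phkg1 read 2.17, 2.87 and 2.55 in Hom-CKO hearts against 11.04, 10.2 and 10.6 in Het-CKO (log2 fold change -2.08 ± 0.13 SE, adjusted p = 1.17e-08). Pfkfb1, which sets the level of fructose 2,6-bisphosphate, read 0.827, 0.621 and 0.620 in Hom-CKO hearts against 3.35, 4.22 and 3.98 in Het-CKO (log2 fold change -2.49 ± 0.19 SE, adjusted p = 1.09e-07). Muscle enolase Eno3 (-0.64), lactate dehydrogenase Ldha (-0.64) and pyruvate dehydrogenase kinase Pdk1 (-0.61) fell by less than 2-fold. The fetal glucose transporter Slc2a1 rose to 1.72 and 1.09 from 0.612, 0.528 and 0.494 (log2 fold change 1.33 ± 0.24 SE, adjusted p = 0.00112), with 1 Hom-CKO spot left out, while the insulin-responsive Slc2a4 (-0.31, adjusted p = 0.419) and hexokinase Hk2 (0.46, adjusted p = 0.079) did not pass.

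**Figure D3:**
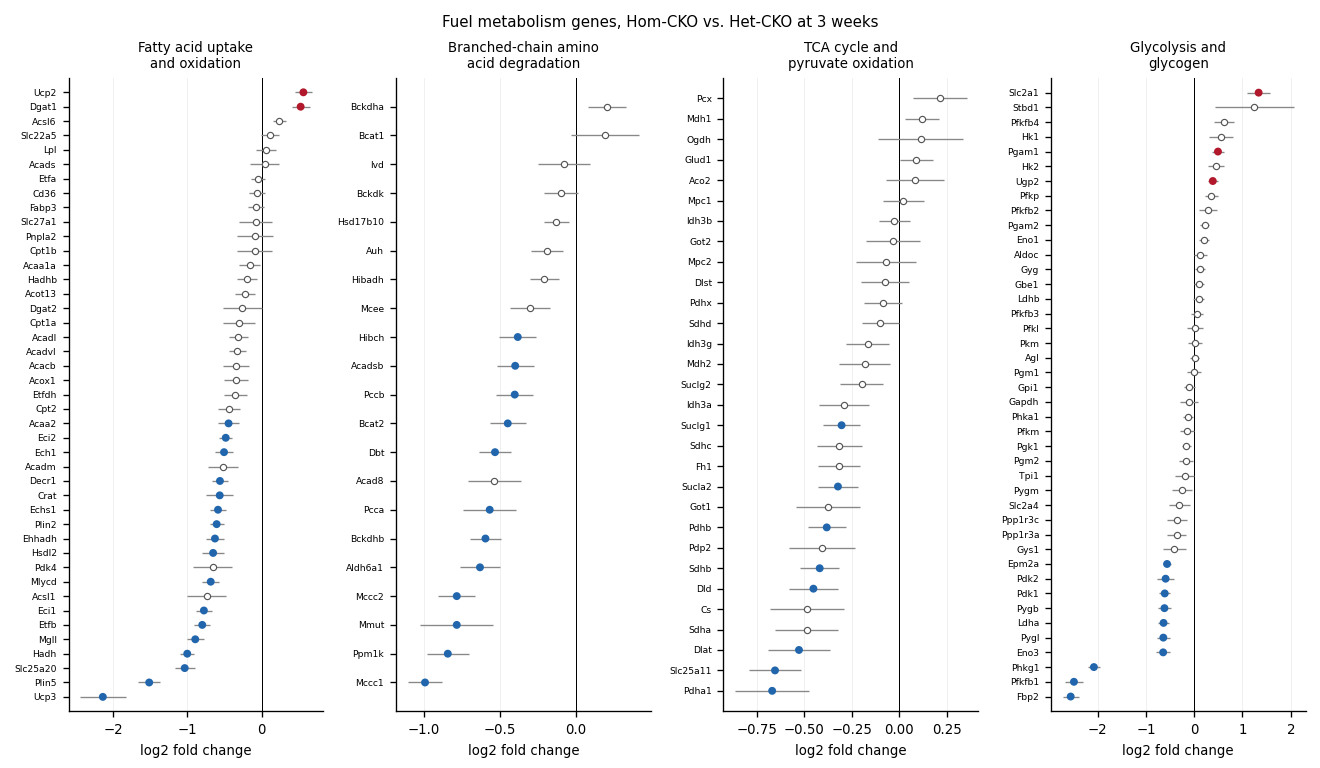
Log2 fold change, Hom-CKO over Het-CKO at 3 weeks, of each tested gene of 4 fuel metabolism lists, with its standard error as a line (n = 3 hearts a group, fewer where a spot was left out). Red and blue points passed an adjusted p under 0.05 as higher and lower, and open points did not pass. Of the filled points 17 of 19 in fatty acid oxidation, 12 of 12 in branched-chain breakdown, 8 of 8 in the TCA cycle and 10 of 13 in glycolysis lie below 0.

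Ketone, one-carbon and NAD metabolism changed at single steps. Of 10 ketone body genes 2 rose and 1 fell, and of 25 serine, one-carbon and methionine genes 4 rose and 3 fell. Of 28 tryptophan and NAD genes 2 rose, 4 fell and 22 did not pass (median -0.002). Bdh1, the mitochondrial enzyme that interconverts the ketone bodies, read 15.1, 18.0 and 15.3 in Hom-CKO hearts against 0.952, 0.629 and 0.958 in Het-CKO (log2 fold change 4.27 ± 0.18 SE, adjusted p = 2.04e-10). Oxct1, which commits them to oxidation, did not pass (-0.28, adjusted p = 0.132). In methionine metabolism Bhmt2, which remethylates homocysteine, read 34.5, 34.1 and 29.3 in Hom-CKO hearts against 7.35, 6.81 and 7.61 in Het-CKO (log2 fold change 2.17 ± 0.13 SE, adjusted p = 5.26e-09). Methionine synthase Mtr read 0.905, 0.637 and 0.613 in Hom-CKO hearts against 1.88, 2.03 and 2.24 in Het-CKO (log2 fold change -1.53 ± 0.23 SE, adjusted p = 0.000239). The cytosolic serine enzyme Shmt1 (1.54) and the mitochondrial folate enzyme Mthfd2 (0.75) rose, Aldh1l2 fell (-1.11) and Shmt2 did not pass (0.01). Ido1, the first enzyme of tryptophan breakdown toward NAD, read 28.7, 29.4 and 32.0 in Hom-CKO hearts against 2.04, 1.21 and 1.56 in Het-CKO (log2 fold change 4.26 ± 0.22 SE, adjusted p = 3.59e-09). Nmrk2, the muscle kinase that feeds nicotinamide riboside into NAD, read 18.5, 16.3 and 12.02 in Hom-CKO hearts against 3.92, 2.81 and 4.25 in Het-CKO (log2 fold change 2.09 ± 0.23 SE, adjusted p = 8.01e-06). The falls included Nampt (11.4, 10.7 and 11.7 in Hom-CKO hearts against 16.6, 20.4 and 17.0 in Het-CKO, log2 fold change -0.68) and Naprt (-0.83). Nmnat3 fell at the brighter of its probes (-0.70), and the other did not pass (-0.17, adjusted p = 0.624).

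**Figure D4:**
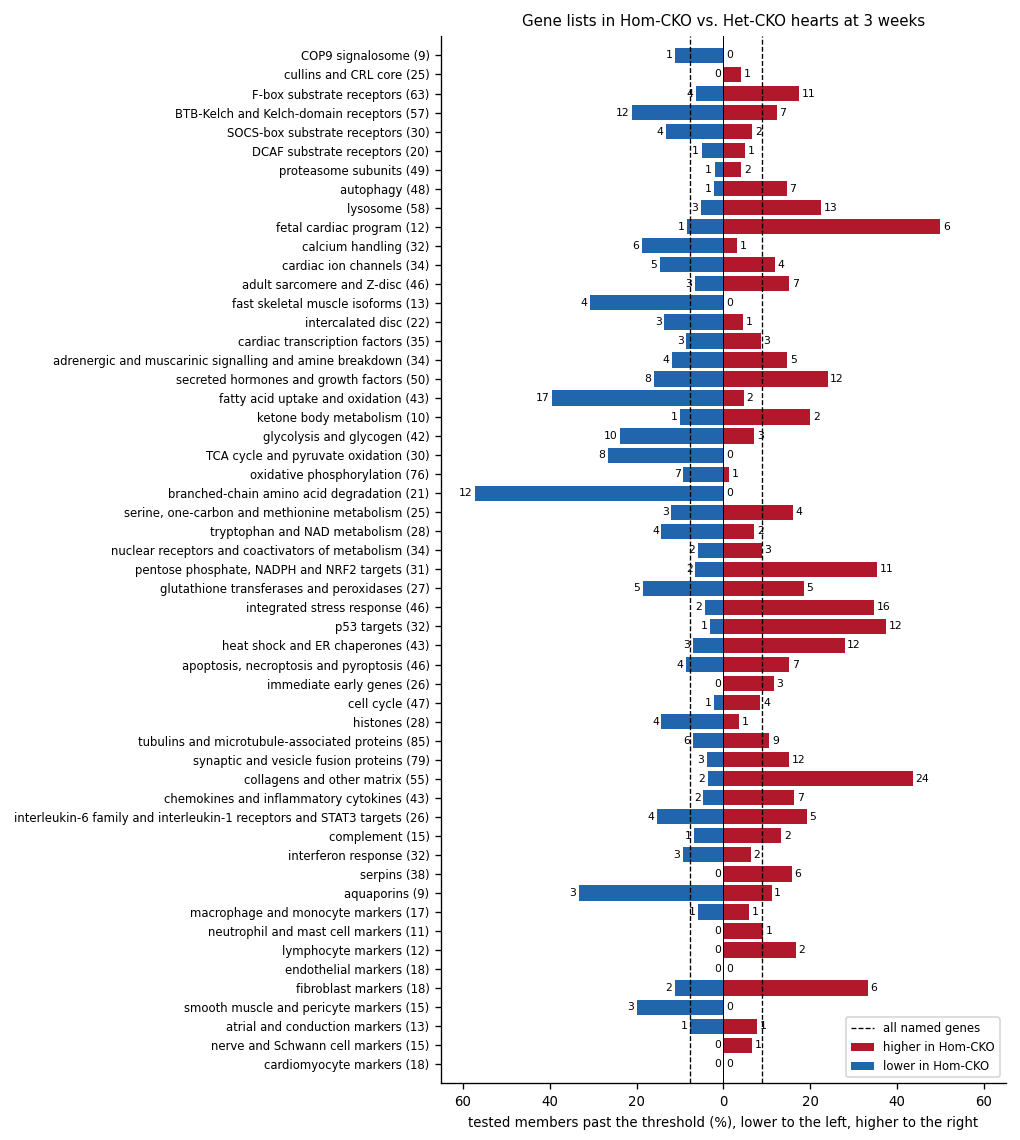
Percent of tested members of each gene list that passed an adjusted p under 0.05 in Hom-CKO vs. Het-CKO hearts at 3 weeks as higher (right, red) or lower (left, blue), with the count beside each bar and the number tested in brackets. Dashed lines mark the shares over all named genes, 8.88% higher and 7.61% lower. The lists were chosen with earlier results of these data known. The fetal cardiac program (6 of 12) and matrix genes (24 of 55) reach furthest to the right, and branched-chain amino acid degradation furthest to the left (12 of 21).

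Few genes of the signalosome and of the ligase core passed. Of 9 signalosome genes Cops6 fell (27.0, 28.1 and 29.3 in Hom-CKO hearts against 37.8, 37.2 and 38.8 in Het-CKO, log2 fold change -0.43), and of 25 cullin, adaptor and neddylation genes Ddb1 rose (0.32), a call lost with the Xist covariate (adjusted p = 0.0597). Substrate receptors give the ligases their targets. Of 57 BTB and Kelch receptors, many of them partners of cullin 3, 7 rose and 12 fell (4 rose with Hom-CKO replicate 2 alone). Rhobtb1 read 13.4, 11.2 and 13.4 in Hom-CKO hearts against 39.3, 38.4 and 44.1 in Het-CKO (log2 fold change -1.68 ± 0.14 SE, adjusted p = 3.85e-07) and fell at both its probes, while its relative Rhobtb2 rose (0.79). The muscle Kelch genes Klhl41 (13.2, 10.8 and 13.7 in Hom-CKO hearts against 26.8, 20.4 and 24.9 in Het-CKO, log2 fold change -0.94) and Klhl31 (-0.96) fell, and Klhdc7a rose (3.74, 4.12 and 4.35 in Hom-CKO hearts against 1.45, 1.13 and 1.23 in Het-CKO, log2 fold change 1.69). Of 63 F-box receptors 11 rose and 4 fell. The sugar-binding Fbxo27 (1.79, 2.10 and 2.25 in Hom-CKO hearts against 0.957, 0.846 and 0.864 in Het-CKO, log2 fold change 1.20), the muscle gene Fbxo40 (0.78) and the atrophy gene Fbxo32 (0.79) rose, and Fbxw7, a receptor for cyclin E and MYC, fell (-0.64). Without any 1 heart other than Hom-CKO replicate 3 the F-box rises were 5 to 7, and the falls were 2 with either Het-CKO replicate 1 or Hom-CKO replicate 2 left out. With the Xist covariate 5 rose and 2 fell, and with Hom-CKO replicate 2 alone 4 rose and none fell by limma (6 were lower at an unadjusted p under 0.05). The SOCS-box receptor Spsb4 read 23.4, 32.0 and 24.7 in Hom-CKO hearts against 11.3, 8.12 and 13.5 in Het-CKO (log2 fold change 1.30 ± 0.20 SE, adjusted p = 0.000211), 1 of 2 rises in a list of 30 with 4 falls (2 falls with Hom-CKO replicate 1, Hom-CKO replicate 3 or Het-CKO replicate 3 left out). With the Xist covariate 2 of this list fell, and with Hom-CKO replicate 2 alone none did by limma (5 were lower at an unadjusted p under 0.05).

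Of 49 proteasome genes the 11S activator subunit Psme1 fell (12.2, 11.01 and 11.5 in Hom-CKO hearts against 27.7, 28.5 and 21.6 in Het-CKO, log2 fold change -1.16 ± 0.13 SE, adjusted p = 1.11e-05), its partner Psme2 did not pass (-0.42, adjusted p = 0.109), and the lid subunits Psmd7 (0.40) and Psmd8 (0.32) rose. In autophagy 7 of 48 genes rose, by less than 2-fold each, and 1 fell. The share called in the autophagy list (16.7%) was near that of all named genes (16.5%). The cargo receptor Sqstm1 read 94.4, 87.2 and 92.3 in Hom-CKO hearts against 64.6, 56.1 and 65.8 in Het-CKO at the brightest of its 4 probes (log2 fold change 0.56 ± 0.10 SE, adjusted p = 0.00068). Its other probes did not pass (0.36, 0.58 and -0.20). The initiating kinase Ulk1 rose by 0.46 and Pik3r4, a subunit of the lipid kinase VPS34 complex, fell (3.72, 3.91 and 3.68 in Hom-CKO hearts against 6.70, 7.22 and 7.35 in Het-CKO, log2 fold change -0.91). Of 58 lysosomal genes 13 rose and 3 fell, with a median of 0.108. The glycosidase Hexa read 23.0, 25.4 and 22.3 in Hom-CKO hearts against 10.4, 13.2 and 11.8 in Het-CKO (log2 fold change 1.01 ± 0.11 SE, adjusted p = 5.05e-06), and the proteases Ctsz (0.68), Ctss (0.81) and Ctsd (0.48) rose with the membrane proteins Lamp1 (0.34) and Lamp2 (0.41). The autophagy rises were 4 with Hom-CKO replicate 2, Hom-CKO replicate 3 or Het-CKO replicate 2 left out, and with Hom-CKO replicate 2 alone no autophagy gene was called higher by limma (6 at an unadjusted p under 0.05). The lysosomal rises were 5 to 8 without any 1 heart other than Het-CKO replicate 2, 8 with the Xist covariate and 5 with Hom-CKO replicate 2 alone.

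Among 46 sarcomere and Z-disc genes 7 rose and 3 fell (5 fell without Het-CKO replicate 2, and 6 with division by the array median). The fast-type myosin-binding protein Mybpc2 read 30.4, 30.9 and 30.8 in Hom-CKO hearts against 11.8, 10.8 and 15.9 in Het-CKO (log2 fold change 1.28 ± 0.20 SE, adjusted p = 0.00032), the cross-linker Flnc rose by 0.89, and tropomyosin Tpm1 fell at all its probes (101, 84.3 and 80.9 in Hom-CKO hearts against 166, 155 and 157 in Het-CKO, log2 fold change -0.85 at the brightest). The fast troponin Tnni2 fell (3.75, 3.42 and 3.31 in Hom-CKO hearts against 9.42, 15.0 and 11.2 in Het-CKO, log2 fold change -1.74). At the intercalated disc, where cardiomyocytes join, Ctnna3 (-1.03) and Dsg2 (-0.81) fell and Pkp4 rose (0.66), 3 falls and 1 rise in 22 genes (18.2% called, against 16.5% of all named genes). Of 34 ion channel genes 4 rose and 5 fell (1 fell with Hom-CKO replicate 2 alone). The sodium channel subunit Scn3b was at least 3.89-fold higher (adjusted p = 4.43e-06). The potassium channel subunit Kcne1 rose (4.00, 3.71 and 5.47 in Hom-CKO hearts against 1.48, 1.08 and 1.31 in Het-CKO, log2 fold change 1.76). The channel of the transient outward current fell at 6 of 7 Kcnd2 probes and at its partner Kcnip2 (4.85, 6.41 and 6.37 in Hom-CKO hearts against 14.1, 10.8 and 13.5 in Het-CKO, log2 fold change -1.12). Among calcium handling genes 6 of 32 fell and 1 rose (3 fell with either Hom-CKO replicate 1 or Het-CKO replicate 3 left out, 1 with Hom-CKO replicate 2 alone, and 10 with division by the array median).

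Of 12 genes of the fetal cardiac program 6 rose and 1 fell, with a median of 0.710 (4 rose with the Xist covariate and 3 with Hom-CKO replicate 2 alone). Natriuretic peptide Nppa, which fetal ventricles and adult atria express, read 245, 254 and 224 in Hom-CKO hearts against 20.1, 13.3 and 20.6 in Het-CKO (log2 fold change 3.77 ± 0.39 SE, adjusted p = 4.17e-06). The defining markers of atrial muscle did not pass. Myl7, the atrial myosin light chain, read 19.3, 8.12 and 5.27 in Hom-CKO hearts against 26.2, 20.1 and 32.0 in Het-CKO (adjusted p = 0.45). Sln, an inhibitor of the calcium pump in atria, read 6.99, 3.28 and 2.26 in Hom-CKO hearts against 6.39, 4.55 and 10.7 in Het-CKO (adjusted p = 0.651). Myl4 read 26.5, 18.7 and 18.6 in Hom-CKO hearts against 32.5, 31.1 and 32.6 in Het-CKO (adjusted p = 0.152). In CTL hearts Myl7 ranged from 3.06 to 53.5. Of 13 atrial and conduction markers 1 rose, Nppa itself, and 1 fell. Of 35 cardiac transcription factors 3 rose and 3 fell (1 rose without Hom-CKO replicate 3, and 1 rose and 5 fell without Het-CKO replicate 2). The share called in that list (17.1%) was near that of all named genes (16.5%). Tbx15, a T-box factor known from skeletal development, rose at both its probes (7.33, 8.24 and 8.72 in Hom-CKO hearts against 0.900, 0.996 and 0.783 in Het-CKO, log2 fold change 3.18 at the brighter), and Hopx, a cofactor without DNA binding of its own, fell at both (43.6, 48.7 and 44.8 in Hom-CKO hearts against 95.8, 129 and 122 in Het-CKO, log2 fold change -1.33).

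Enzymes and receptors of amine signalling changed in both directions, and 5 of 34 genes of this list rose while 4 fell (2 rose with Hom-CKO replicate 2 alone). Monoamine oxidase Maob read 1.37, 1.51 and 1.53 in Hom-CKO hearts against 7.94, 7.37 and 7.07 in Het-CKO (log2 fold change -2.34 ± 0.12 SE, adjusted p = 1.36e-09). Histamine methyltransferase Hnmt read 0.676, 0.707 and 0.809 in Hom-CKO hearts against 3.50, 4.59 and 3.43 in Het-CKO (log2 fold change -2.39 ± 0.25 SE, adjusted p = 4.45e-06). Every Hom-CKO heart lay below every Het-CKO heart for Maob and for Hnmt, as the choice of the largest falls required. Maoa did not pass (-0.08, adjusted p = 0.827). The dopamine receptor Drd2 read 5.53, 7.54 and 7.79 in Hom-CKO hearts against 1.23, 1.24 and 1.05 in Het-CKO (log2 fold change 2.56 ± 0.18 SE, adjusted p = 4.20e-08). The α1-adrenergic receptor Adra1b rose (0.79), the β1 receptor Adrb1 did not pass (-0.30, adjusted p = 0.378), and Rgs2, which curbs Gq signalling, fell (24.4, 18.5 and 17.9 in Hom-CKO hearts against 47.7, 55.0 and 45.0 in Het-CKO, log2 fold change -1.29).

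Among 50 secreted hormones and growth factors 12 rose and 8 fell (5 fell without Hom-CKO replicate 2, and 8 rose and 3 fell with that heart alone). The 3 transforming growth factors β rose together, Tgfb2 to 5.38, 6.14 and 5.13 from 2.84, 2.53 and 2.93 (log2 fold change 1.003 ± 0.10 SE, adjusted p = 2.29e-06), Tgfb3 to 20.7, 22.4 and 21.5 from 11.1, 11.2 and 10.99 (log2 fold change 0.95 ± 0.10 SE, adjusted p = 3.18e-06) and Tgfb1 by 0.47. The activin antagonist Fstl3 rose (2.81, 2.23 and 2.53 in Hom-CKO hearts against 1.04, 0.965 and 1.01 in Het-CKO, log2 fold change 1.32). The peptide apelin, Apln, fell from 4.74, 7.35 and 6.00 to 1.64 and 1.69 (log2 fold change -1.83 ± 0.20 SE, adjusted p = 8.86e-06), with 1 Hom-CKO spot left out, and its receptor did not pass (-0.23, Aplnr, adjusted p = 0.411). The cardiotrophin gene Ctf1 fell from 4.62, 6.35 and 5.25 to 2.44, 2.38 and 2.39 (log2 fold change -1.16 ± 0.11 SE, adjusted p = 1.09e-06). The aquaporin Aqp8 rose (3.23, 3.95 and 2.05 in Hom-CKO hearts against 0.625, 0.666 and 0.592 in Het-CKO, log2 fold change 2.24) and Aqp4 fell at both its probes (1.23, 0.970 and 1.25 in Hom-CKO hearts against 5.42, 3.97 and 6.64 in Het-CKO, log2 fold change -2.19 at the brighter), while the main vascular water channel Aqp1 did not pass (-0.12, adjusted p = 0.541).

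Of 55 extracellular matrix genes 24 rose and 2 fell, and the median was 0.393. Cilp, a matrix protein of cartilage and scar, read 9.47, 9.83 and 6.57 in Hom-CKO hearts against 1.98, 2.44 and 1.96 in Het-CKO (log2 fold change 2.005 ± 0.19 SE, adjusted p = 1.94e-06). The thrombospondin Thbs4 read 29.3, 28.5 and 27.4 in Hom-CKO hearts against 8.02, 8.501 and 6.31 in Het-CKO (log2 fold change 1.91 ± 0.14 SE, adjusted p = 9.61e-08). The short-chain collagen Col8a1 read 6.91, 5.34 and 5.08 in Hom-CKO hearts against 1.54, 1.40 and 1.62 in Het-CKO (log2 fold change 1.92 ± 0.16 SE, adjusted p = 8.02e-07). The protease inhibitor Timp1 (6.81, 6.998 and 6.16 in Hom-CKO hearts against 2.71, 1.84 and 1.78 in Het-CKO, log2 fold change 1.68), periostin, Postn (40.4, 33.0 and 23.1 in Hom-CKO hearts against 10.4, 14.9 and 12.6 in Het-CKO, log2 fold change 1.32), and the collagen cross-linking enzyme Lox (4.32, 4.50 and 4.32 in Hom-CKO hearts against 1.80 and 1.93 in Het-CKO with a Het-CKO spot left out, log2 fold change 1.23) rose without overlap of the hearts. The fibrillar collagens Col1a1 (0.80) and Col1a2 (0.71) rose, and Col3a1 did not pass (224, 193 and 161 in Hom-CKO hearts against 144, 178 and 165 in Het-CKO, adjusted p = 0.226). The basement membrane collagen Col4a1 did not pass either (0.28, adjusted p = 0.464), and the elastic fibre glycoprotein Emilin2 fell (-1.09). With Hom-CKO replicate 2 alone 14 rose. Of 18 fibroblast markers 6 rose and 2 fell, all 6 rises being genes of matrix or matrix-processing proteins (3 rose with Hom-CKO replicate 2 alone). The surface marker Pdgfra did not pass (32.2, 30.5 and 30.9 in Hom-CKO hearts against 26.1, 28.4 and 28.0 in Het-CKO, adjusted p = 0.317). The summed fibroblast marker level was 962 to 1089 in Hom-CKO against 797 to 932 in Het-CKO hearts, and its part in the matrix result was not tested.

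Few markers of other cell types passed, while 16 of 18 endothelial and all 5 erythroid markers lay below 0. Of 17 macrophage and monocyte markers, the chemokine receptor Ccr2 of recruited monocytes rose (2.59, 3.76 and 2.90 in Hom-CKO hearts against 0.933, 1.24 and 0.959 in Het-CKO, log2 fold change 1.56) and Lyve1 of resident macrophages and lymphatic vessels fell (2.95, 2.94 and 2.60 in Hom-CKO hearts against 5.10, 6.59 and 7.13 in Het-CKO, log2 fold change -1.14). Cd68 (-0.13), Csf1r (0.12) and Adgre1 (0.16) did not pass, and the summed level was 156 to 182 in Hom-CKO against 138 to 202 in Het-CKO hearts. None of 18 endothelial markers passed by limma or by the methods' t-test, 8 were lower at an unadjusted p under 0.05, 3 fell without Het-CKO replicate 2 and 2 without Het-CKO replicate 3, and the median was -0.293. Their summed level was 328 to 345 in Hom-CKO against 383 to 425 in Het-CKO hearts, with Pecam1 at 9.04, 10.2 and 10.3 in Hom-CKO hearts against 11.8, 11.6 and 12.6 in Het-CKO (adjusted p = 0.197). Of 15 smooth muscle and pericyte markers 3 fell, led by Acta2, which immature cardiomyocytes also express (-1.14), and Tagln, a marker of mature smooth muscle, did not pass (-0.05). Of 11 neutrophil and mast cell markers the granulocyte receptor Csf3r rose (2.20, 2.40 and 1.46 in Hom-CKO hearts against 0.814, 0.718 and 0.891 in Het-CKO, log2 fold change 1.29), and of 12 lymphocyte markers 2 rose, neither of which passed without Hom-CKO replicate 1. None of 5 erythroid markers passed by limma or by the methods' t-test, and 3 were lower at an unadjusted p under 0.05.

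Some inflammatory genes rose from levels near the floor. Of 43 chemokines and cytokines 7 rose and 2 fell. The T cell chemokine Ccl17 was at least 3.66-fold higher (1.34, 1.48 and 0.566 in Hom-CKO hearts, adjusted p = 5.94e-05), the acute phase protein Saa3 at least 3.52-fold (0.805, 1.24 and 0.803, adjusted p = 0.00217), and Il6 read 0.509, 0.612 and 0.503 in Hom-CKO hearts against 0.259, 0.435 and 0.331 in Het-CKO (log2 fold change 0.69 ± 0.21 SE, adjusted p = 0.0418). Cxcl12, which retains stem cells and lymphocytes, fell (-0.59), and the monocyte attractant Ccl2 did not pass (0.61, adjusted p = 0.138). The rises were 4 without Het-CKO replicate 1 or 3 and with division by the array median, and 3 with Hom-CKO replicate 2 alone. Among genes of interleukin-6 and STAT3 signalling, Serpina3n rose to 5.33, 5.00 and 3.58 from 0.912 and 1.07 with 1 Het-CKO spot left out (log2 fold change 2.21 ± 0.18 SE, adjusted p = 4.77e-07), Lrg1 fell (6.69, 6.58 and 7.11 in Hom-CKO hearts against 22.9, 14.9 and 22.0 in Het-CKO, log2 fold change -1.53), and Stat3 (-0.04) and Socs3 (0.25) did not pass. Of 38 serpins 6 rose and none fell, the elastase inhibitors Serpinb1c (at least 27.6-fold higher, adjusted p = 3.05e-12) and Serpinb1a (15.4, 15.2 and 14.2 in Hom-CKO hearts against 5.49, 6.75 and 5.34 in Het-CKO, log2 fold change 1.36) among them, and none was lower by the methods' t-test or at an unadjusted p under 0.05, but 1 fell without Het-CKO replicate 3. By the methods' t-test 2 serpins rose. The share called in the serpin list (15.8%) was near that of all named genes (16.5%). Masp1, a protease of the lectin pathway of complement, read 3.22, 3.41 and 3.26 in Hom-CKO hearts against 0.903, 0.808 and 0.834 in Het-CKO at the brighter of its probes (log2 fold change 1.96 ± 0.11 SE, adjusted p = 2.59e-09), and C3 did not pass (-0.01). Of 32 interferon-induced genes 27 lay below 0 (median -0.234) and 3 fell, among them Ifi35 (3.12, 3.18 and 3.35 in Hom-CKO hearts against 5.89, 7.58 and 5.66 in Het-CKO, log2 fold change -0.97) and Ifit3 (at least 2.31-fold lower, adjusted p = 2.31e-05), and 2 rose. The share called among interferon-induced genes (15.6%) was also near that of all named genes.

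Of 85 tubulin and microtubule genes 9 rose and 6 fell (5 and 2 with Hom-CKO replicate 2 alone). The tubulin polyglutamylase subunit Ttll1 read 2.54, 2.65 and 3.02 in Hom-CKO hearts against 12.5, 14.0 and 11.6 in Het-CKO at the brighter of its probes (log2 fold change -2.21 ± 0.11 SE, adjusted p = 1.32e-09) and did not pass at the other, its relative Ttll7 rose (3.06, 2.44 and 2.36 in Hom-CKO hearts against 1.07, 1.31 and 0.883 in Het-CKO, log2 fold change 1.28), and the tubulin polymerization protein Tppp fell (1.88, 1.83 and 1.76 in Hom-CKO hearts against 4.02, 5.07 and 4.36 in Het-CKO, log2 fold change -1.29). The share called in the microtubule list (17.6%) was near that of all named genes (16.5%). Of 79 synaptic and vesicle fusion genes 12 rose and 3 fell (19% called). The endocytic Ras effector Rin1 read 5.33, 5.60 and 5.42 in Hom-CKO hearts against 0.970, 1.24 and 1.13 in Het-CKO (log2 fold change 2.30 ± 0.13 SE, adjusted p = 3.74e-09). The small GTPase Rab31 read 17.0, 18.8 and 18.1 in Hom-CKO hearts against 7.10, 8.06 and 7.90 in Het-CKO (log2 fold change 1.23 ± 0.10 SE, adjusted p = 2.32e-07), rising at both its probes. The neuronal synaptotagmin Syt13 was at least 2.21-fold higher (adjusted p = 4.74e-07). The vesicle rises were 7 without Hom-CKO replicate 2, and with that heart alone 4.

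Some of these differences were larger than a week earlier. The 2-week hearts (3 Hom-CKO, 3 Het-CKO) gave a second difference, and the change in the log2 fold change between the ages passed for 232 of 26568 probes (0.873%), 175 with a more positive and 57 with a more negative difference at 3 weeks. With the Xist covariate 94 passed, 87 more positive and 7 more negative, and with Hom-CKO replicate 2 as the only Hom-CKO heart at 3 weeks 120 passed, 100 and 20. The count was 128 to 148 without the 2-week Hom-CKO replicate 3 or any 1 of the 2-week Het-CKO hearts. The more negative differences were 28 to 32 without any 1 heart other than Hom-CKO replicate 2 or Het-CKO replicates 1 and 2 at 3 weeks and Hom-CKO replicate 1 at 2 weeks. Each age was its own scan set, which cannot be told apart from age but is shared by the genotypes within each difference. Bdh1 read 0.321 to 0.508 in the 2-week Hom-CKO hearts, and its log2 fold change went from 0.74 to 4.27 (difference 3.54, standard error 0.26, adjusted p = 8.98e-07). Ido1 read 1.65 to 2.61 in the 2-week Hom-CKO hearts and went from 0.97 to 4.26 (difference 3.29, adjusted p = 4.43e-05). Rasgrf2 (0.07 to 3.20), Mylk2 (0.58 to 2.96) and Ankrd2 (0.26 to 2.85) changed in the same way. On the falling side, Jade1 read 17.0 to 18.4 in the 2-week Hom-CKO hearts and its log2 fold change went from -0.16 to -2.15 (difference -1.99, adjusted p = 7.81e-06). Lrat went from 0.50 to -1.92 (difference -2.41, adjusted p = 0.00213), Apln from -0.24 to -1.83 (adjusted p = 0.00649) and Plin5 from -0.38 to -1.51 (adjusted p = 0.0124). The fatty acid enzyme Hadh (-0.63) and the p53 targets Cdkn1a (1.47) and Phlda3 (1.03) also passed this test of the ages. With the Xist covariate Lrat, Apln, Plin5, Hadh, Cdkn1a and Phlda3 no longer passed it, and with Hom-CKO replicate 2 as the only 3-week Hom-CKO heart Plin5, Hadh, Cdkn1a and Phlda3 did not.

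**Figure D5:**
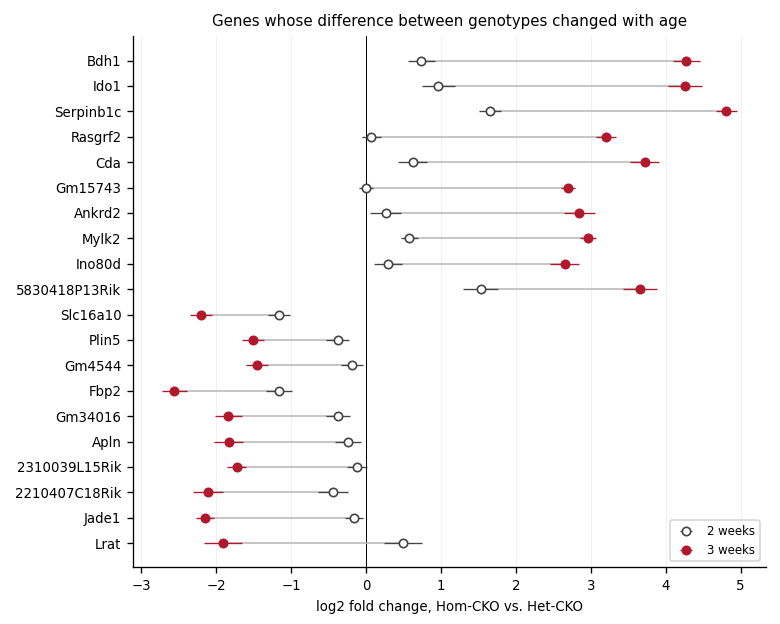
Log2 fold change, Hom-CKO over Het-CKO, at 2 weeks (open points) and 3 weeks (filled points) for the 10 genes with the largest positive and the 10 with the largest negative change of that difference between the ages. Lines through the points are standard errors from the fit (3 hearts a group, fewer where a spot was left out). Bdh1 moves from 0.74 to 4.27 and Jade1 from -0.16 to -2.15.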

How the data were processed

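Ventricular RNA of 18 mouse hearts (3 hearts in each of 6 groups of genotype and age) was hybridised as biotin-labelled cRNA to CodeLink arrays, and 6 hearts at 3 weeks enter the comparison. Per the file headers, the authors deposited the raw intensity of each spot, with local background subtracted, and a quality flag from CodeLink Expression Analysis 5.0.0.31312. The series value table deposited by the authors holds scaled intensities and served as an alternative. The replicates are separate animals. The number of arrays limits the precision.

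Spots flagged as contaminated, irregular or masked were left out (1.80% to 2.00% on the 6 arrays). The raw intensities of 34967 gene probes were quantile normalized over the 18 arrays, put relative to the median probe, floored at the 1st percentile of signals marked above background, and taken to log2. A probe was tested where some group had it above background in all 3 hearts (26606 probes). Group means were fitted with limma 3.58.1 in R 4.3.3 over all 18 arrays, with Benjamini-Hochberg adjustment and a threshold of 0.05, and the fit was tested on simulated data. Values lost at a left-out spot were not imputed. Genes were named from the platform annotation. The methods' t-test was run on the same values.

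Named genes were the 25 largest rises and falls whose hearts did not overlap, up to 6 called members of each list, members needed to place them, and up to 10 genes each way in the difference between ages. Further called members of a list were picked after their values were seen. The genes, the 57 lists and the tests were chosen with earlier results of these data known. Alternatives covered normalization, background, floor, filters, arrays in the fit, replicate numbers, sex and single hearts. Some genes of these lists are not reported here.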

Additional observations from a re-analysis of the deposited data

Results flagged for a closer look

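The log2 fold change of Hom-CKO vs. Het-CKO hearts differed between 3 and 2 weeks (adjusted p under 0.05 in limma) for the following genes named above, given as the change in log2 fold change from 2 to 3 weeks. Of metabolic genes, it was 3.54 for Bdh1, 3.29 for Ido1, -0.63 for Hadh, -1.13 for Plin5, -1.40 for Fbp2, 0.93 for Pparg, -2.41 for Lrat, 1.84 for Gsta1 and 0.84 for Srxn1. Of transporters, channels and other membrane proteins, it was 2.01 for Tmem171, 2.06 for Slc22a4, -1.05 for Slc16a10, 1.70 for Scn3b and 1.74 for Syndig1. Of receptors, amine enzymes and secreted factors, it was 1.23 for Adra1b, 1.87 for Drd2, -0.94 for Maob, -1.60 for Apln, 1.20 for Fstl3, 0.70 for Tgfb2, 0.71 for Tgfb3 and 1.91 for Ccl17. Of serpins, the complement protease and the interferon-induced gene, it was 3.15 for Serpinb1c, 1.24 for Serpinb1a, 1.81 for Serpina3n, 1.53 for Masp1 and -0.84 for Ifi35. Of p53 targets and ligase receptors, it was 1.47 for Cdkn1a, 1.03 for Phlda3 and 0.86 for Fbxo27. Of muscle genes and regulators of transcription and chromatin, it was 2.59 for Ankrd2, 2.38 for Mylk2, 1.76 for Tbx15, -0.74 for Hopx, 2.36 for Ino80d and -1.99 for Jade1. Of regulators of small GTPases and vesicles, it was 3.13 for Rasgrf2, 1.26 for Rin1, 0.67 for Rab31 and 1.14 for Syt13. Of these 40 genes, 18 no longer passed with the Xist level as a covariate and 16 with Hom-CKO replicate 2 as the only 3-week Hom-CKO heart. These differences rest on at most 3 hearts a group at each age, and age cannot be told apart from the scan set.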

How the results depend on the processing

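At 3 weeks the count of probes that passed (3668) was 2398 with the 9 arrays at 3 weeks fitted alone, 1381 by the methods' t-test and 1407 with Hom-CKO replicate 2 as the only Hom-CKO heart, an alternative chosen after seeing the data. It ran from 2618 to 3163 with 1 heart left out, and from 2708 to 4010 under the other alternatives. The count for the difference between the ages (232) was 371 with normexp background correction, 357 with the floor at the 5th percentile, 94 with the Xist covariate and 120 with Hom-CKO replicate 2 as the only 3-week Hom-CKO heart. It ran from 128 to 197 with 1 heart left out. The cause of these shifts was not tested. No named gene that passed changed sign under any alternative. Of 233 named genes at 3 weeks, calls were lost for 67 by the methods' t-test, 45 with Hom-CKO replicate 2 alone, 13 with the Xist covariate and 22 or fewer under each of the others, although only 183 of these genes were tested where probes had to be above background on all 18 arrays. Of 40 named genes in the difference between the ages, calls were lost for 18 with the Xist covariate, 16 with Hom-CKO replicate 2 as the only 3-week Hom-CKO heart, 8 with a replicate block and 10 or fewer under each of the others, with 21 of them tested on probes above background on all 18 arrays. The calls lost with the Xist covariate were those of Ddb1, Ddb2, Diablo, Fbxo32, Gars, Hspa1a, Il6, Lamp1, Lamp2, Nars, Slc1a4, Syn2 and Tgfb1, and those of genes with full values above that were lost with Hom-CKO replicate 2 alone included Chac1, Ddit3, Cryab and Sqstm1. Under each alternative normalization or background correction, the median over probes of the change in log2 fold change was 0.018 or less. Some lists moved more, as given above. Many list counts were smaller by the methods' t-test. By it the rises were 9 for matrix genes, 6 for the integrated stress response, 6 for p53 targets and 7 for NADPH and NRF2 genes. They were 3 for chaperones, 2 for lysosomal genes, 1 for autophagy and 0 for fibroblast markers. The falls were 9 for fatty acid genes, 6 for glycolysis, 3 for branched-chain breakdown and 1 for the TCA cycle.

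Replicate numbers were shared between the genotypes, but hearts of the same number deviated together only weakly at 3 weeks (r = 0.0126, 0.0810 and 0.0861) and somewhat more at 2 weeks (r = 0.1482, 0.1123 and 0.0811). With the replicate number as a block 3373 probes passed at 3 weeks and 173 in the difference between the ages. Every Hom-CKO heart correlated best with the Het-CKO heart of its own number at 2 weeks but not at 3 weeks, a hint from the data and not from the design. A slide or scan set as a block was not run, since each slide held 1 array and the 6 arrays shared 1 scan set. Probes near background (25.8% to 29.2% on the 6 arrays) have only a bound.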
